A study of Mus musculus with 21 samples.

Results

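The genes of the insulin-like growth factor (IGF) axis described here are 6 IGF-binding proteins, Igfbp2, Igfbp3, Igfbp4, Igfbp5, Igfbp6 and Igfbp7, together with the ligand gene Igf1, the receptor genes Igf1r and Insr, and the adaptor gene Irs2. They were chosen by symbol, 10 of the 34478 genes in the deposited table, and all 10 passed the filter on low values (at least 10 normalized counts in at least 3 samples), as did 19300 genes of the table. RNA-seq was performed on 6 primary murine pancreatic ductal adenocarcinoma (PDAC) cell lines, #3, #4, #6, #7, #9 and #10, from genetically engineered mice whose alleles include Trp53 loxP/loxP and Ptf1a wt/Cre, in which Cre under the control of the pancreatic gene Ptf1a removes Trp53. Every sample has the same genotype, the controls included, and the lines are tumor cells that grew out of tumor pieces in medium with fetal bovine serum. Parental cells (6 samples) had never met the drug. Resistant cells (6 samples) were grown in trametinib, an inhibitor of the kinase MEK, at 100 times the IC50 of their line. Reverting cells were kept without the drug for 5 passages (P5, 3 samples, lines #3, #7 and #9) or 12 passages (P12, 6 samples), and for P5 of lines #7 and #9 one label field gives 12 drug-free passages where the sample name gives 5. Since 1 sample per line and state was sequenced, the replicates of a state are its lines. The age of the mice was not given in the sources used here.

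IGF1 and IGF2 are secreted ligands that act through the IGF1 receptor and, less strongly, the insulin receptor, which are tyrosine kinases. The adaptors IRS1 and IRS2 carry the signal to PI3K and AKT. IGF-binding proteins bind the ligands outside the cell and hold them away from the receptor or release them when proteases cut the binding protein, and several also act without the ligands.

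The samples held an estimated 24.1 to 42.7 M reads (M for 1e+06, median 32.5 M), and 3 reads corresponded to 2.31 to 4.07 normalized counts. This floor covers counting error only. The drug target pathway followed the labels: Dusp6, a phosphatase induced by ERK signaling, lay between 5249 and 9449 normalized counts in parental, 4.49 and 681 in resistant and 5098 and 16848 in P12 samples. Trp53 was listed at 178 to 475 normalized counts over the 21 samples, a gene sum that holds exons outside a deletion and so checks nothing. Of the epithelial markers, Epcam was at or under 3 reads in every parental, resistant and P12 sample, while Krt18 lay between 11363 and 86547 normalized counts in parental cells. These are bulk samples, in which fewer cells of a type and less RNA per cell cannot be told apart.

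Igfbp2 rose in resistant cells of all 6 lines and was lower again after 12 passages without the drug. It encodes an IGF-binding protein that is abundant in fetal tissue and in many tumors. In parental cells Igfbp2 was nearly absent, at 7.75 normalized counts in line #3, 8.40 in #4, 19.4 in #6, 4.27 in #7, 18.9 in #9 and 2.27 in #10, the last under 3 reads. In resistant cells it reached 5384 normalized counts in line #3, 20877 in #4, 6431 in #6, 218 in #7, 37056 in #9 and 52847 in #10. Every resistant sample lay above every parental sample, and line #7 was far below the other 5 resistant lines. Within a line the rise in normalized counts was 695-fold in #3, 2486-fold in #4, 332-fold in #6, 51.0-fold in #7 and 1959-fold in #9, and no fold is given for #10, whose parental value was under 3 reads. In limma, Igfbp2 rose by a log2 fold change of 9.82 (SE 1.42, n = 6 lines per state, adjusted p = 0.000198), and it was higher in 6 of 6 lines. Under the 14 alternative settings its log2 fold change lay between 8.93 and 10.71 and its adjusted p between 9.32e-06 and 0.00311.

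**Figure D1:**
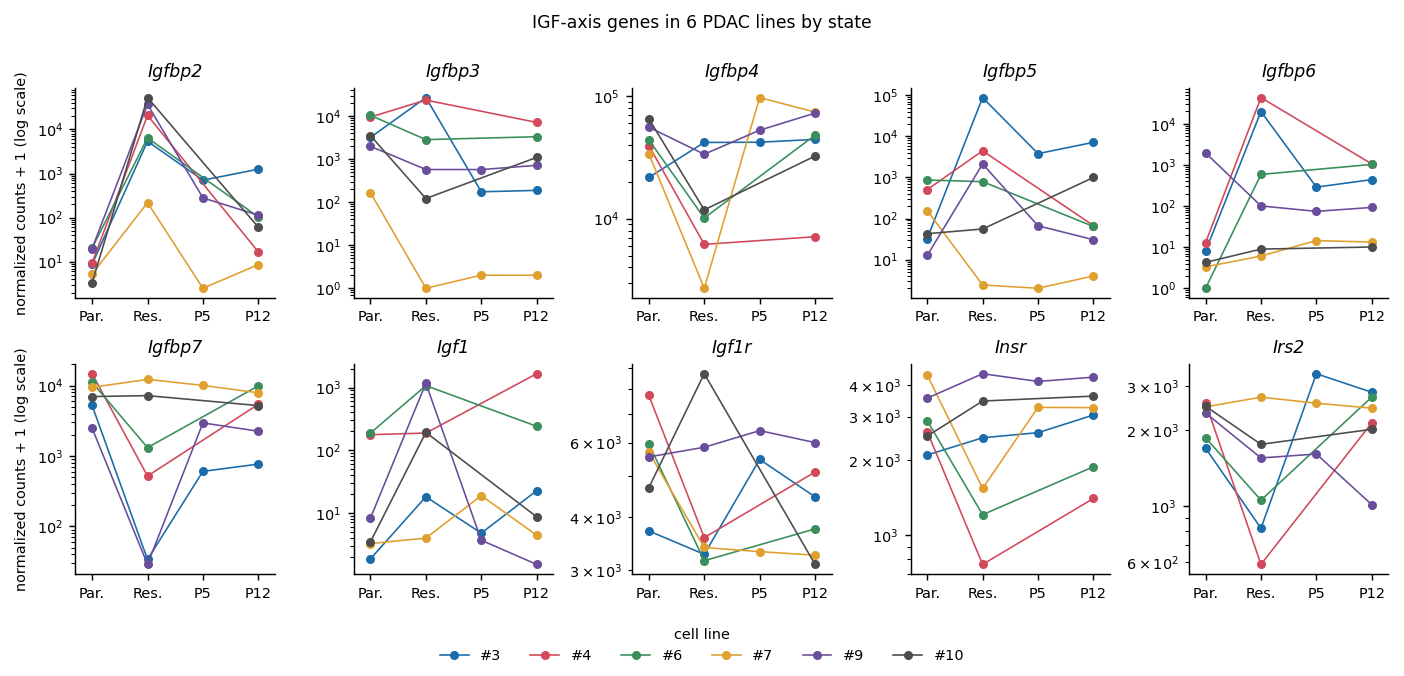
Normalized counts plus 1 on a log axis for the 10 IGF-axis genes in parental (Par.), resistant (Res.), P5 and P12 samples, with 1 point per sample and 1 colored line per cell line (P5 exists for #3, #7 and #9 only). Igfbp2 rises in all 6 lines, from at most 19.4 in parental to at least 218 in resistant cells, while Igf1r, Insr and Irs2 vary by at most 5.85-fold over all samples.

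After drug withdrawal Igfbp2 was lower than in resistant cells in every line. In P5 samples it was at 706 normalized counts in line #3, 1.50 in #7 (under 3 reads) and 279 in #9. In P12 samples it was at 1252 normalized counts in line #3, 15.6 in #4, 102 in #6, 7.58 in #7, 112 in #9 and 59.6 in #10. Line #3 kept the highest level at P12, and its P12 value was 4.30-fold below its resistant value, against 1335-fold in #4 and 887-fold in #10. From resistant to P12 cells Igfbp2 fell by 6.86 on the log2 scale (SE 1.42, n = 6 lines per state, limma adjusted p = 0.00657), lower in 6 of 6 lines. This call was lost when only these states were fitted (adjusted p = 0.0234) and without line #4 (0.0501), #6 (0.0282), #9 (0.0242) or #10 (0.0416), with an adjusted p between 0.0005 and 0.0501 over 14 alternatives and a log2 fold change between -7.81 and -6.17. Of all genes, 0.572%, 0.695%, 1.03%, 2.48% and 0.849% were called under these settings, in the same order, in place of 2.13%. P12 values remained above the parental value of the same line in 6 of 6 lines, by 1.78-fold in #7 to 161-fold in #3 where a fold can be given, with a log2 fold change of 2.96 (SE 1.42, 95% interval -0.0045 to 5.92) that did not pass the test (limma adjusted p = 0.327). Against resistant cells, the 3 P5 samples gave a log2 fold change of -6.70 (SE 1.74, limma adjusted p = 0.0494), which did not pass the threshold of 0.01.

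Marker lists of other cell types and of epithelial cells were read in the same samples. The summed normalized counts of 10 fibroblast and stellate cell markers ranged from 127 to 25862 in parental, 1966 to 586490 in resistant and 284 to 179360 in P12 samples. Of 9 such markers tested, 1 was called higher in resistant cells (Dcn, a matrix proteoglycan, log2 fold change 11.00, SE 1.97, limma adjusted p = 0.00116), and 3 when the line was added as a block. Of all genes, 5.3% were called in that comparison, and 10.5% with the block. From resistant to P12 cells 0 of 9 were called in limma, with 2 at an unadjusted p below 0.05, beside 2.13% of all genes. With the block 1 was called lower (Dcn), beside 4.52%. Col1a1, Col3a1, Dcn and Acta2 were higher in 6 of 6 resistant lines. Pdgfra and Thy1 were higher in 3 resistant lines and lower in 3, and from resistant to P12 cells Pdgfra and Pdgfrb were higher in 4 of 6 lines each. Lum was at or under 3 reads in all 6 parental and 5 of 6 resistant samples, with 139 normalized counts in the other.

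The summed normalized counts of 8 ductal and epithelial markers ranged from 18371 to 283870 in parental, 1693 to 210020 in resistant and 3930 to 209600 in P12 samples. Of 7 tested, 2 were called lower in resistant cells (5 with the block) with a median log2 fold change of -3.06. For each marker list, the share of all genes called in this comparison was 5.3% (10.5% with the block). Cdh1, Sox9, Cldn4, Krt8 and Krt18 were lower in 6 of 6 lines, Krt7 in 5 and Krt19 in 4. The 2 called lower were Sox9, a ductal transcription factor, and Cldn4, a tight junction protein (log2 fold changes -3.06 and -6.46). From resistant to P12 cells Sox9 was called higher (3.84, SE 0.62, limma adjusted p = 0.00117), the only call of the 7, beside 2.13% of all genes. In that comparison Cdh1 was higher in 6 of 6 lines, Krt18 in 5, Krt8 and Cldn4 in 3, and Krt19 and Krt7 in 2. Cldn4 stayed at 8.30 normalized counts or below at P12. Against parental cells the median log2 fold change of the 7 at P12 was -2.11, with 1 called lower, beside 0.114% of all genes. For 5 leukocyte markers the sums ranged from 136 to 244 in parental, 202 to 2896 in resistant and 183 to 243 in P12 samples, and 0 of 3 tested were called in limma, with 2 at an unadjusted p below 0.05. Csf1r was higher in 6 of 6 resistant lines and reached 2530 normalized counts, while Ptprc was lower in 6 of 6 and lay between 3.02 and 20.0 in the 21 samples. For 5 endothelial markers the sums ranged from 44.8 to 180 in parental, 32.8 to 2757 in resistant and 84.1 to 249 in P12 samples, and 1 of 5 tested was called higher, Tek, an angiopoietin receptor, with up to 2512 normalized counts (log2 fold change 5.90, SE 1.14, limma adjusted p = 0.002, higher in 6 of 6 lines). From resistant to P12 cells Tek was called lower (-5.84, SE 1.14, limma adjusted p = 0.00427), the only call of the 5, beside 2.13% of all genes. Kdr was lower there in 4 of 6 lines, but Pecam1 and Vwf were higher in 6 of 6 and Cdh5 in 5. The median log2 fold change of the 5 was 1.10, with 4 at an unadjusted limma p below 0.05. With the block 1 was called higher and 1 lower, beside 4.52% of all genes. Pecam1 lay between 9.65 and 74.0 normalized counts in the 21 samples, and Cdh5 was at or under 3 reads in all 6 resistant samples. The sums for acinar markers were 42.7 to 278 in parental and 0 to 522 in resistant samples, and those for islet markers at most 62.6. The part of all these markers in the Igfbp2 result was not tested.

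The sequences around the start sites of Igfbp2 are shown because this gene carries the main result. Igfbp2 lies on the plus strand at chr1:72824480-72852474 (mm10), and RefSeq (GRCm38.p6, the same build) lists 2 start sites for it, 907 bases apart. The first window is chr1:72824230-72824529 and the second chr1:72825137-72825436, each from 250 bases before to 50 bases after the start site on the plus strand, written 5′ to 3′. Capitals mark the letters TGANTCA, the AP1 motif, which was searched on both strands together with the forkhead motif TGTTTAC, for which no match was found, so no matches overlap. Igf1 at chr10:87860861-87861160 is shown beside them as the only other member whose window holds the AP1 letters.
Igfbp2, first start site: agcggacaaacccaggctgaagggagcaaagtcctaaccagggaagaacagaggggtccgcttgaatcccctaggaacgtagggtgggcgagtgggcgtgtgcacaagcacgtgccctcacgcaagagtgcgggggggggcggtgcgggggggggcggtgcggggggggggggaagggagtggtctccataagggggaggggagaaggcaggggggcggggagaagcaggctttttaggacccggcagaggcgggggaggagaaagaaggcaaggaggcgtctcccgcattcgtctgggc
Igfbp2, second start site: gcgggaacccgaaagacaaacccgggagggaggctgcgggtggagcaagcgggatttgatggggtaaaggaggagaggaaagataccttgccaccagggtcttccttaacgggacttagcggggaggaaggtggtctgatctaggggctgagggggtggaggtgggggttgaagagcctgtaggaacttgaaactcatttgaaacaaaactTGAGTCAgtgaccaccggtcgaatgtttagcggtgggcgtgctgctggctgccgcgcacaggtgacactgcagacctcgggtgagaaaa
Igf1, start site: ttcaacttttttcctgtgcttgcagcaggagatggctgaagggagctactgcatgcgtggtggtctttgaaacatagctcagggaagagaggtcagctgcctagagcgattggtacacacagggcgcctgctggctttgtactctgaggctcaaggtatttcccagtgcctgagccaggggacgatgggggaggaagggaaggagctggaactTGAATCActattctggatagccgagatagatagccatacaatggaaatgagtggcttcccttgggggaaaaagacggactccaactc
The match begins 39 bases before the second start site of Igfbp2 and 37 bases before the start site of Igf1. Promoter windows were found for 9 of the 10 members, of which 2 held the AP1 letters and 0 the forkhead letters. This counts genes, and Igfbp2 had 2 windows, with a match in 1. Counted by single window, 7.81% of 32851 promoter windows of the same length held the AP1 letters and 3.65% the forkhead letters. A match describes letters only. Igfbp5 lies on the opposite strand at chr1:72858065-72874865, tail to tail with Igfbp2 and 5.59 kb from it.

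Of the 10 members, 1 was called higher and 0 were called lower in resistant than in parental cells (limma, adjusted p under 0.01 with a log2 fold change beyond 1 in size), while 5 had an unadjusted p below 0.05. Across all 19300 tested genes, 5.3% passed the same thresholds, and the share at an unadjusted p below 0.05 was not computed. The median log2 fold change of the members was -0.46, beside -0.0049 for all tested genes. With the cell line as a block, which compares states within lines, 2 of 10 members passed, Igfbp2 higher and Igfbp7 lower, where 10.5% of all genes passed.

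Per kb of transcript, Igfbp4 and Igfbp7 were the 2 highest binding protein genes of every parental sample, and neither passed the test in resistant cells without the block. Igfbp4 encodes a binding protein that inhibits IGF action and is cleaved by the protease PAPPA. Its normalized counts in parental cells were 21708 at the lowest, 41760 at the median and 65457 at the highest, and in resistant cells 2702, 10968 and 41944. The ranges overlapped, and Igfbp4 was lower in 5 of 6 resistant lines, most in #7 (12.6-fold), while #3 was 1.93-fold higher. The log2 fold change was -1.78 (SE 0.61, 95% interval -3.05 to -0.52, limma adjusted p = 0.0515), which missed the threshold. At P12 the values were 7120, 46282 and 74196 normalized counts at the lowest, median and highest, with line #4 the lowest. From resistant to P12 cells Igfbp4 was higher in 6 of 6 lines, between 1.06-fold in #3 and 27.5-fold in #7, with a log2 fold change of 1.65 (SE 0.61, limma adjusted p = 0.121) that did not pass.

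Igfbp7 encodes a secreted protein that binds insulin and IGFs weakly and is found in the matrix. In parental cells it was at 5209 normalized counts in line #3, 14723 in #4, 11109 in #6, 9432 in #7, 2481 in #9 and 6969 in #10. In resistant cells it was at 32.9 in line #3, 518 in #4, 1312 in #6, 12233 in #7, 27.8 in #9 and 7186 in #10. The lines fell into a set of 4 with lower Igfbp7 in the resistant state, by 158-fold in #3, 28.4-fold in #4, 8.47-fold in #6 and 89.2-fold in #9, and a pair, #7 and #10, with differences of 1.30-fold and 1.03-fold upward. The log2 fold change over the 6 lines was -3.53 (SE 1.25), with a limma adjusted p of 0.0614 in the fit of states alone and 0.00897 once the line was added as a block, and the adjusted p lay between 0.00897 and 0.179 over 14 alternatives. At P12 Igfbp7 was at 765 normalized counts in #3, 5412 in #4, 9892 in #6, 7888 in #7, 2242 in #9 and 5190 in #10. These values were below the parental value in 6 of 6 lines, by 1.11-fold in #9 to 6.81-fold in #3, and the log2 fold change was -0.87 (SE 1.25, limma adjusted p = 0.771).

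For Igfbp3, Igfbp5 and Igfbp6 the line held 73.8%, 39.8% and 39.2% of the variance of log2 values over the 18 parental, resistant and P12 samples, and the state 7.64%, 9.87% and 22.7%. The rest, with neither, was 18.6%, 50.3% and 38.1%. Medians over all tested genes were 35.8% for the line, 19.8% for the state and 36.6% for the rest. Igfbp3 encodes the main carrier of IGFs in serum. Its normalized counts in parental cells were 3231 in line #3, 9615 in #4, 10518 in #6, 166 in #7, 2004 in #9 and 3557 in #10. In resistant cells they were 27244 in #3, 23845 in #4, 2868 in #6, 578 in #9 and 121 in #10, and Igfbp3 was listed at 0 in #7. Lines #3 and #4 were thus higher and the other 4 lower in the resistant state, and the log2 fold change of -1.92 (SE 2.28, 95% interval -6.68 to 2.84, limma adjusted p = 0.628) did not pass the test. At P12 Igfbp3 was lower than in parental cells in 6 of 6 lines, from 1.33-fold in #4 to 17.2-fold in #3 where a fold can be given, and line #7 was again under 3 reads at P5 and P12. The log2 fold change from parental to P12 cells was -2.62 (SE 2.28, limma adjusted p = 0.609).

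Igfbp5 encodes a conserved binding protein that also attaches to matrix. Line #3 held the extreme value, 88026 normalized counts in resistant cells against 31.7 in parental cells, and kept 3804 at P5 and 7173 at P12. In line #9 Igfbp5 was at 11.7 normalized counts in parental, 2136 in resistant and 29.6 in P12 cells, and in line #4 at 505, 4461 and 66.7. Line #7 went the other way, from 156 normalized counts in parental cells to under 3 reads in resistant, P5 and P12 cells. In lines #6 and #10 the parental and resistant states differed by 1.09-fold and 1.31-fold, and at P12 #6 was 13.7-fold below and #10 23.9-fold above its parental value. The log2 fold change of 2.69 (SE 2.27, limma adjusted p = 0.471) did not pass.

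Igfbp6 encodes a binding protein that prefers IGF2 over IGF1. In parental cells its normalized counts were 7.01 in line #3, 11.8 in #4, 2.31 in #7, 1961 in #9 and 3.27 in #10, and it was listed at 0 in #6. In resistant cells they were 19960 in #3, 43542 in #4, 588 in #6, 5.09 in #7, 99.7 in #9 and 7.98 in #10. Lines #3, #4 and #6 thus went from at most 11.8 to at least 588 normalized counts, #7 and #10 stayed under 10, and #9 was 19.7-fold lower. Igfbp6 was higher in 5 of 6 lines with a log2 fold change of 4.98 (SE 2.18, 95% interval 0.43 to 9.53), which did not pass the test (limma adjusted p = 0.130). At P12 it was at 439 normalized counts in #3 and 1058 in #4, which was 45.5-fold and 41.2-fold below their resistant values, and at 1028 in #6, 1.75-fold above its resistant value. From parental to P12 cells the log2 fold change was 3.50 (SE 2.18, limma adjusted p = 0.451).

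**Figure D2:**
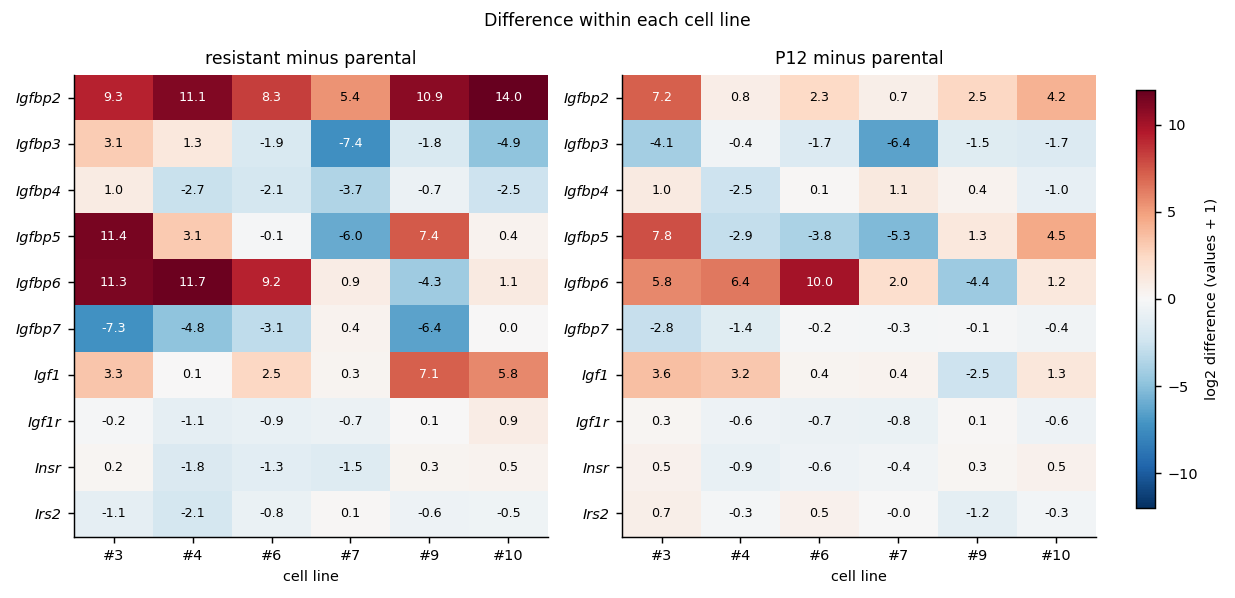
Log2 difference of each member within each cell line (columns), resistant minus parental on the left and P12 minus parental on the right, on values with a pseudocount of 1, and both panels share the parental samples. Igfbp2 is higher in all 6 lines on the left (5.37 to 13.98), Igfbp6 is above 9 in #3, #4 and #6 only, and Igfbp7 is below -3 in #3, #4, #6 and #9.

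The make-up of the binding protein RNA was compared on a scale per length, normalized counts per kb of the longest coding transcript. Igfbp4 held the largest share in 5 of 6 parental samples (Igfbp7, at 46.0%, in #4) and ranged from 38.7% to 75.7% of the summed level of the 6 binding proteins. In resistant samples Igfbp4 led in 0 of 6, with shares of 2.38% to 25.2%. The leading gene there was Igfbp6 in lines #3 (30.4%) and #4 (57.8%), Igfbp2 in #6 (46.8%), #9 (74.9%) and #10 (81.6%), and Igfbp7 in #7 (92.1%). At P5 Igfbp4 led in 3 of 3 samples and at P12 in 5 of 6, with Igfbp7 at 43.7% in #4. The leader depended on the length taken for Igfbp4, whose longest coding transcript has 3831 bases and whose median has 742. With median lengths Igfbp4 led also in the resistant samples of #3, #6 and #9 and in parental and P12 cells of #4, while Igfbp6 in #4, Igfbp7 in #7 and Igfbp2 in #10 led with both lengths. The summed level ranged from 11360 to 26674 normalized counts per kb in parental, 10504 to 67764 in resistant and 10321 to 25959 in P12 samples. With median lengths it ranged from 35338 to 95970 in parental and 14400 to 107040 in resistant samples, and the share of Igfbp4 from 75.3% to 93.9% and from 10.6% to 60.9%. In lines #9 and #10 the summed level was higher in resistant than in parental cells with the longest transcripts and lower with median lengths, while the other 4 lines kept their order.

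**Figure D3:**
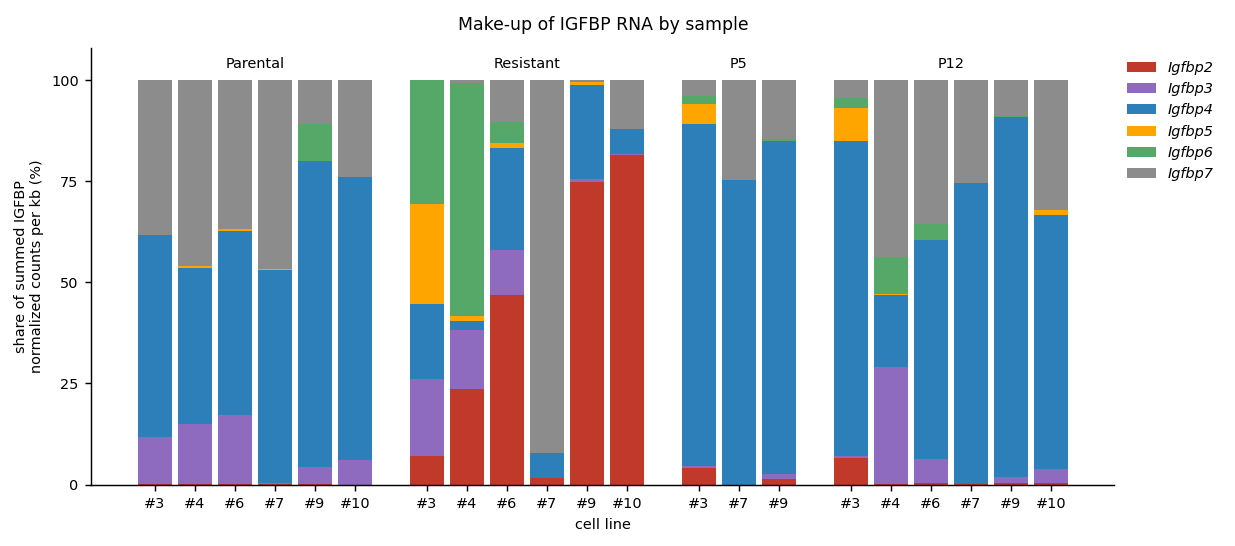
Share of each IGF-binding protein gene in the summed normalized counts per kb (longest coding transcript) of the 6 genes, 1 stacked bar per sample, grouped by state. Igfbp4 takes 38.7% to 75.7% of the parental bars and 2.38% to 25.2% of the resistant bars, whose leading gene differs from line to line.

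The ligand gene Igf1 was low in most samples. It was at or under 3 reads in 3 of 6 parental samples, at 176 normalized counts in #4, 187 in #6 and 7.24 in #9. In resistant cells it was at 17.0 normalized counts in #3, 187 in #4, 1071 in #6, 1168 in #9 and 191 in #10, and under 3 reads in #7. Igf1 was higher in 6 of 6 resistant lines, but by only 1.06-fold in #4 and between 2 values under 3 reads in #7, and the log2 fold change of 3.19 (SE 1.73, 95% interval -0.43 to 6.81, limma adjusted p = 0.233) did not pass. At P12 line #4 held the highest Igf1 level of all samples, 1663 normalized counts, while #9 was under 3 reads.

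The receptor and adaptor genes had smaller SDs over the samples than the binding proteins. Igf1r encodes the IGF1 receptor and was between 3098 and 8712 normalized counts in all 21 samples, a 2.81-fold range. Its log2 values had an SD of 0.46 over the 18 parental, resistant and P12 samples, where the SDs of Igfbp2, Igfbp3, Igfbp5 and Igfbp6 were 4.75, 4.12, 3.96 and 4.51 those of Igfbp4 and Igfbp7 were 1.38 and 2.70, and the median of all tested genes was 0.73. From parental to resistant cells Igf1r had a log2 fold change of -0.33 (SE 0.26, 95% interval -0.87 to 0.21, limma adjusted p = 0.427), lower in 4 lines and 1.85-fold higher in #10. A log2 fold change of 1 in either direction lay outside this interval.

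Insr, which encodes the insulin receptor, lay between 2100 and 4407 normalized counts in parental and between 762 and 4457 in resistant samples. It was lower in resistant cells of #4 (3.42-fold), #6 (2.39-fold) and #7 (2.86-fold), and higher by 1.17-fold to 1.38-fold in #3, #9 and #10. The log2 fold change of -0.59 (SE 0.37, limma adjusted p = 0.308) did not pass. Irs2, which encodes the adaptor below both receptors, had 1700, 2411 and 2572 normalized counts at the lowest, median and highest in parental and 587, 1305 and 2708 in resistant samples. It was lower in 5 of 6 resistant lines, by 1.42-fold in #10 to 4.39-fold in #4, and its log2 fold change of -0.83 (SE 0.32, 95% interval -1.49 to -0.16) had a limma adjusted p of 0.0834. At P12 the median of Irs2 was 2296 normalized counts, with a log2 fold change of -0.086 (SE 0.32, limma adjusted p = 0.919) against parental cells.

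**Figure D4:**
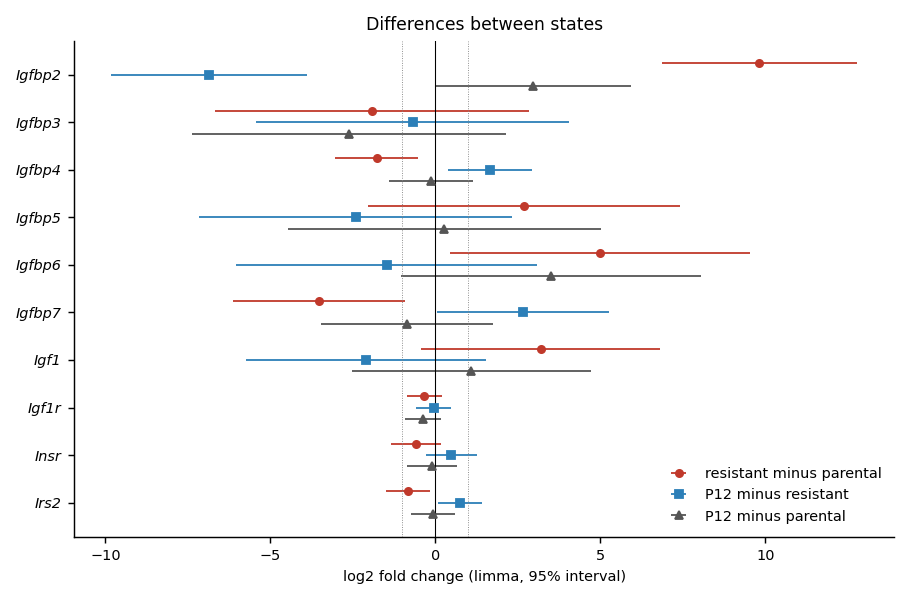
Log2 fold changes of the 10 members in limma with 95% intervals, resistant minus parental (red circles), P12 minus resistant (blue squares) and P12 minus parental (grey triangles). The dotted lines mark log2 fold changes of -1 and 1, and the comparisons share samples. Only the red and blue intervals of Igfbp2 lie wholly beyond a log2 fold change of 3 in size, and the intervals of Igf1r, Insr and Irs2 are the narrowest.

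In the other comparisons few members passed. From resistant to P12 cells 1 of 10 was called (Igfbp2, lower; 4 with an unadjusted limma p below 0.05), beside 2.13% of all genes. From parental to P12 cells 0 of 10 were called in limma, with 0 at an unadjusted p below 0.05, beside 0.114% of all genes. For P5 the counts were 0 of 10 against resistant cells (3 with an unadjusted limma p below 0.05), where 0.378% of all genes passed, and 0 of 10 against parental cells (0 with an unadjusted limma p below 0.05), where 0.0259% passed.

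Differences among the 6 cell lines, allowing for state, were called for 1 of 10 members, Igfbp3 (limma moderated F test, F = 12.7, adjusted p = 0.00214), beside 7.92% of all genes. Without line #7 or without line #9, 0 members passed this test, and the share of all genes passing it then was not recorded. Over the 18 parental, resistant and P12 samples, the line held 9.87% of the variance of log2 Igfbp2 and the state 79.5%, and the medians over all tested genes were 35.8% and 19.8%. Igf1 and Insr had 57.1% and 53.3% with the line, and Igf1r had 60.4% with neither.

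The genes whose log2 values were most like those of Igfbp2 over the 21 samples were Myom2 (Pearson r = 0.90), Gab1 (0.90) and Tram2 (0.89), given as a description of samples that share 6 lines and 4 states. Gab1 also belongs to a list of 76 further insulin and IGF pathway genes, of which 67 could be tested. In resistant against parental cells 5 of the 67 were called higher and 4 lower, 32 had an unadjusted p below 0.05, and their median log2 fold change was -0.052, beside -0.0049 for all genes. Of all genes 5.3% were called in either direction, and their share at an unadjusted p below 0.05 was not computed. When the line was added as a block the counts were 6 and 7, where 10.5% of all genes were called.

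Among adaptors and regulators near the receptor, 1 of 19 genes was called higher and 1 lower (1 and 2 with the block), beside 5.3% of all genes (10.5%). Gab1, a docking protein that recruits PI3K and SHP2, had 227 to 661 normalized counts in parental and 1295 to 5178 in resistant samples, which do not overlap. Gab1 rose by a log2 fold change of 2.76 (SE 0.47, limma adjusted p = 0.000771), higher in 6 of 6 lines. Socs6, a suppressor of cytokine and insulin receptor signaling, fell by 1.62 on the log2 scale (SE 0.38, limma adjusted p = 0.00783), from 1819 to 3541 normalized counts in parental to 335 to 1651 in resistant samples. Irs1 lay between 984 and 2020 normalized counts in parental and between 664 and 2941 in resistant samples (log2 fold change 0.0079, SE 0.44, limma adjusted p = 0.995).

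Of 29 genes of the PI3K, AKT and FOXO list, 2 were called higher and 1 lower, with and without the block. Of all genes, 10.5% were called with the block and 5.3% without it. Foxo6, a forkhead transcription factor, was at 3.97 to 110 normalized counts in parental and 942 to 5832 in resistant samples, with a log2 fold change of 6.33 (SE 1.15, limma adjusted p = 0.00129). Its lowest parental value, in line #9, was under 3 reads. Pik3r3, a regulatory subunit of PI3K, had 223 to 404 normalized counts in parental and 861 to 3762 in resistant samples (log2 fold change 2.25, SE 0.54, limma adjusted p = 0.00845). Phlpp1, a phosphatase that removes phosphate from AKT, fell from 1833 to 3336 normalized counts in parental to 73.4 to 644 in resistant samples, a log2 fold change of -3.02 (SE 0.42, limma adjusted p = 0.000158). Each of these 3 genes had the same direction in 6 of 6 lines.

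Of 11 tested proteases of binding proteins and their inhibitors, 2 were called higher and 2 lower (3 and 2 with the block), beside 5.3% of all genes (10.5%). Htra1, a serine protease that cuts IGF-binding proteins, rose by a log2 fold change of 2.73 (SE 0.51, limma adjusted p = 0.00159), with 915 to 7539 normalized counts in parental and 6474 to 29300 in resistant samples. Adamts1, a secreted metalloprotease, rose by a log2 fold change of 4.29 (SE 0.83, limma adjusted p = 0.00203), from 172 to 1169 normalized counts to 1725 to 37077. Stc1, a secreted inhibitor of PAPPA, fell by 5.24 on the log2 scale (SE 0.95, limma adjusted p = 0.00128), from 70.0 to 677 normalized counts in parental to 2.03 to 10.0 in resistant samples. Its lowest resistant value, in line #7, was under 3 reads. Furin, a proprotein convertase, fell by 1.64 on the log2 scale (SE 0.39, limma adjusted p = 0.00899), lower in 5 of 6 lines. Without line #3, #4, #6 or #10 the number of called genes over all the lists was 4, 5, 3 and 5 in place of 9. Of all genes, 2.71%, 2.47%, 2.37% and 2.64% were then called in place of 5.3%.

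After withdrawal, 7 of the 67 further pathway genes were called between resistant and P12 cells, 3 higher and 4 lower at P12, where 2.13% of all genes were called (4 and 5 with the block, where 4.52% were). Foxo6 (log2 fold change -5.42, SE 1.15, limma adjusted p = 0.00777), Htra1 (-2.94, SE 0.51, limma adjusted p = 0.00204) and Adamts1 (-4.03, SE 0.83, limma adjusted p = 0.00649) fell, and Phlpp1 (2.53, SE 0.42, limma adjusted p = 0.0015) and Stc1 (5.45, SE 0.95, limma adjusted p = 0.00204) rose. The other 2 were named after their values were seen: Trib2, a pseudokinase that binds AKT, was higher (4.42, SE 0.92, limma adjusted p = 0.00686) and Pik3cb, a catalytic subunit of PI3K, lower (-1.79, SE 0.33, limma adjusted p = 0.00301). Between P12 and parental cells limma called 0 of the 67, with 8 at an unadjusted p below 0.05, beside 0.114% of all genes, and 1 with the block, beside 0.523%.

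**Figure D5:**
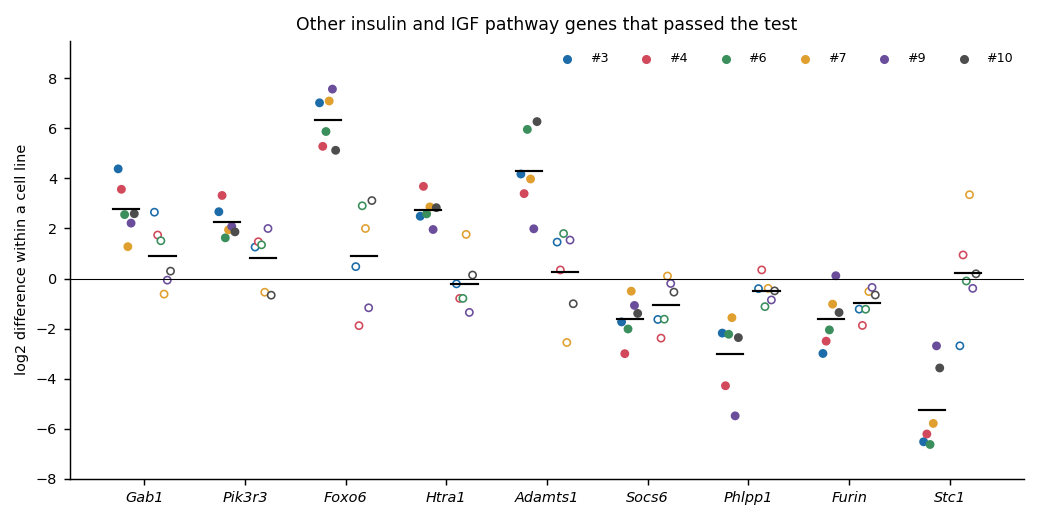
Log2 difference within each cell line (colored points) for the 9 further pathway genes called in resistant against parental cells, filled for resistant minus parental and open for P12 minus parental, with black bars for the mean over 6 lines. The filled points of Gab1, Pik3r3, Foxo6, Htra1 and Adamts1 are all above 0 and those of Socs6, Phlpp1 and Stc1 all below, while the open points of each gene but Furin lie on both sides of 0.

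The remaining ligand, receptor and carrier genes gave no call in resistant against parental cells, where 5.3% of all genes were called. Of 8 listed genes 2 were tested, with 0 at an unadjusted limma p below 0.05. Igf2, the second IGF ligand, is imprinted and high in fetal tissue. In line #3 it was under 3 reads in parental cells and at 514 normalized counts in resistant, 2559 in P5 and 1168 in P12 cells. Line #9 had 40.4 normalized counts of Igf2 in parental and 163 in resistant cells, line #6 had 245 at P12, and the other samples were at 17.5 or below. The log2 fold change in resistant cells was 1.89 (SE 1.91, limma adjusted p = 0.561). Igf2r, the receptor that removes IGF2 from the cell surface, lay between 4117 and 28660 normalized counts in all samples (log2 fold change 0.71, SE 0.40, limma adjusted p = 0.251). Igfbp1 was at or under 3 reads in 19 of 21 samples and at most at 11.3 normalized counts. Of 6 regulators of Igf2, 0 were called in limma in resistant against parental cells, beside 5.3% of all genes. Of these 6, 4 had an unadjusted limma p below 0.05. With the block 2 of these 6 were called lower in resistant cells, beside 10.5% of all genes. With the block 1 was called higher at P12 than in resistant cells, beside 4.52%.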

How the data were processed

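RNA of 6 PDAC cell lines in 4 states (21 samples) was analysed, and samples were grouped by their labels. The authors trimmed reads with Skewer, used Salmon 0.12 (mm10) and TXImport to reach gene level, and deposited DESeq2 1.18 normalized counts, a signal scaled for library size but not for gene length. Of the low values, 69.6% to 79.4% fell within 0.1 of a whole number of reads, so reads were not recovered and count models were not run. Here log2 values with a pseudocount of 1 were tested with limma 3.58.1 (R 4.3.3, eBayes with a trend) in 1 fit of all 4 states, for 19300 genes with at least 10 normalized counts in at least 3 samples, with Benjamini-Hochberg adjustment over all of them. The fit was tested on simulated data with independent noise, an SD of at most 1 on the log2 scale and no differences among lines. Several members spread more widely (SD 5.54 for Igfbp3 in resistant cells), so the simulation cannot show how the fit performs for them. The lines pair the samples by origin, and same-line deviations correlated at 0.16 to 0.35 between parental and resistant samples. Between resistant and P12 samples the correlation was 0.34 to 0.52, and between resistant and P5 samples 0.50 to 0.54. Parental samples correlated at 0.0082 to 0.51 with P12 and at -0.060 to 0.47 with P5 samples. A fit with the line as a block was an alternative.

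Named genes are all members, every gene of the wider lists called in resistant against parental cells, Igf2, Igf2r, Igfbp1 and Irs1, the 3 genes most like a called member, and checks. The members and lists were chosen with earlier results of these data known. Lists and markers were recalled from general knowledge. For no comparison was the share of all genes at an unadjusted p below 0.05 computed. Counts of members, list genes or markers at that level therefore have no background. Transcript lengths came from GENCODE M21 and promoter sequences from RefSeq (GRCm38.p6). The sequencer of each sample was not given in the sources used here, so no values within a sequencing batch could be had. Alternatives were pseudocounts of 0.5 and 8, no filter, a filter on a mean of at least 100, upper quartile scaling, no trend, the compared states alone, the block and each line left out. Median transcript lengths were an alternative chosen after seeing the data. A further engineered allele of the mice is not reported here.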

Additional observations from a re-analysis of the deposited data

Results flagged for a closer look

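In 30 groups of 6 samples, 1 for each member and each of the parental, resistant and P12 states, 3 held a sample far from the other 5 on the log2 scale, and chance alone sets apart about 1 in 20 groups (Dixon's test). Igfbp6 was at 1961 normalized counts in parental cells of line #9, where the next highest parental sample had 11.8. Igfbp4 was at 7120 normalized counts in P12 cells of line #4, where the next lowest had 32471. Irs2 was at 1014 normalized counts in P12 cells of line #9, where the next lowest had 2019.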

How the results depend on the processing

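With the cell line as a block, which uses the pairing of states by line, the number of members called in resistant against parental cells went from 1 to 2, since Igfbp7 passed, and no other call of a member changed. Fitting only the resistant and P12 states left 0 members called between them in place of 1, where 0.572% of all genes were called in place of 2.13%. With 1 line left out at a time, the number of members called ranged from 0 to 1 for P12 against resistant cells and for differences among lines, and the 9 called genes of the wider lists became 3 (without #6) to 11 (without #9). The share of all genes called in resistant against parental cells moved the same way, from 5.3% to 2.37% without #6 and 6.58% without #9. The reversed directions all belonged to values that had not passed the test. For P5 against parental cells, Igfbp5 had a log2 fold change of 0.19 with a pseudocount of 8 and 0.14 with the block, and the block gave 0.96 for Igf1 and -0.13 for Insr. Leaving out lines gave -3.49 to 2.41 for Igfbp5, -0.34 to 0.14 for Igf1r and -0.20 to 0.42 for Irs2 in that comparison. For P12 against resistant cells, Igf1r had 0.041 with upper quartile scaling and -0.16 to 0.24 with lines left out, and Igfbp3 -1.47 to 0.60. For P12 against parental cells, lines left out gave -0.39 to 0.33 for Igfbp4, -1.23 to 1.39 for Igfbp5, -0.23 to 0.059 for Insr and -0.25 to 0.14 for Irs2. Where a line was left out, fewer lines stood behind each value, and other causes were not tested. Fitting the compared states alone kept every line of those states. Upper quartile scaling moved the median log2 fold change of all genes from 0.022 to 0.11 for P12 against resistant cells. With 1 sample per line and state, p-values of the main fit are set against the spread between lines within a state. In the fit with the block and the test of differences among lines, they are set against how state differences vary between lines. Levels near 3 reads (in some samples of Igf1, Igf2, Igfbp2, Igfbp3, Igfbp5, Igfbp6, Foxo6, Stc1 and Myom2) carry large counting error.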
